A study of Mus musculus with 12 samples.

Results

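Circular RNAs (circRNAs) made from genes of the nuclear pore and of nuclear transport were described in 4 mouse cell lines. The members were all circRNAs with 1 host gene whose symbol begins with Nup, Ipo, Xpo, Kpna, Kpnb, Tnpo or Ranbp (for Nup and Ipo followed by a digit), with Nup155 left out. This gave 37 of the 4455 single host genes and 148 of the 13474 circRNAs listed in either of 2 tables. Of the 148, 140 had reads: 55 in both tables, 47 in the mammary table alone and 38 in the melanocyte table alone. Values were summed per host gene and also read for each circRNA.

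The tumour lines were 4T1 (breast cancer cells) and B16F10 (melanoma cells). Each was set against a line of its own lineage, 4T1 against Eph4-ev (breast epithelial cells) and B16F10 against Melan-a (melanocytes), with 3 libraries per line and no agent or genotype named in the labels for any line. Before sequencing, linear RNA was removed with the exonuclease RNase R, and reads across the back-splice junction, the join that closes a circle, were counted. The labels do not say whether libraries of a line came from separate cultures, so p-values measure only the spread between these libraries. Each lineage has 1 tumour line, so tumour state and other differences between the lines cannot be told apart.

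Nearly all traffic of proteins and RNAs between nucleus and cytoplasm passes through nuclear pore complexes, which are built from nucleoporins. Importins carry cargo in and exportins carry it out, and the small GTPase Ran, bound to GTP in the nucleus, makes importins release cargo and exportins bind it. A circRNA arises when a downstream splice site of such a gene is joined to an upstream one. Its level is therefore not that of the gene's mRNA or protein, which were not measured here.

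The back-splice joins of the 4 member circRNAs with the highest mean level over the 12 libraries are shown because they held 796 of the 2217 member reads (35.9%). That of Ipo7 is also the member circRNA that passed the test between lines. Each sequence holds the last 25 bases of the last exon in lower case and, in capitals, the first 25 bases of the first exon, to which it is joined. They were read 5′ to 3′ on the gene's own strand from GENCODE M21 transcripts (mm10), and all 4 circles consist wholly of coding sequence.
Ipo7 exons 2 to 4 (chr7:110027071-110031766, plus strand): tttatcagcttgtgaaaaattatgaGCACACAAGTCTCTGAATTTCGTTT
Ipo11 exons 4 to 5 (chr13:106910200-106910816, minus strand): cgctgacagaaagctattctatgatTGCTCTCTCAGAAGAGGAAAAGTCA
Ipo8 exons 2 to 3 (chr6:148821595-148824485, minus strand): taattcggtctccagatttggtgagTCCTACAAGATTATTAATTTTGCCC
Tnpo3 exons 2 to 4 (chr6:29586038-29589229, minus strand): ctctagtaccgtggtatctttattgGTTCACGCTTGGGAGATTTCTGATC
The spliced circles would be 395 (Ipo7), 277 (Ipo11), 239 (Ipo8) and 432 bases long (Tnpo3).

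The libraries held 15572 to 44625 junction reads in 4T1, 50648 to 56649 in Eph4-ev, 16697 to 20011 in B16F10 and 25072 to 33557 in Melan-a. Levels are given as RPM, junction reads per 1000000 junction reads of the library, and 1 read stood for 64.2 RPM in the shallowest library and 17.7 RPM in the deepest. RPM is a share of junction reads, so fewer cells that hold a circRNA and less of it per cell cannot be told apart. Of 12 melanocyte markers, 0 had circRNA reads in 4T1, 1 in Eph4-ev, 8 in B16F10 and 9 in Melan-a. Of 12 epithelial markers, 6 had reads in 4T1, 6 in Eph4-ev, 1 in B16F10 and 2 in Melan-a, and of 9 mesenchymal markers the counts were 0, 2, 1 and 2 in the same order of lines. Of 6 immune markers 0 had reads in any line. Listed circRNAs with and without an ID in the authors' circBase column differed in which lines had reads for them. Of the 25 member circRNAs of the mammary table with no ID in the authors' circBase column, 22 had reads in 4T1 alone, 0 in Eph4-ev alone and 3 in both lines. Of the 77 with an ID, 2 had reads in 4T1 alone, 40 in Eph4-ev alone and 35 in both. Over the whole mammary table, 1328 of the 1785 circRNAs without an ID had reads in 4T1 alone, 0 in Eph4-ev alone and 457 in both. Circles without an ID held 23.5% of the member reads in 4T1 and 0.268% in Eph4-ev, against 12.1% and 0.667% of all junction reads. In the melanocyte table, 13 of the 38 member circRNAs without an ID had reads in B16F10 alone, 2 in Melan-a alone, 5 in both and 18 in neither. Results are therefore also given with circRNAs that carry an ID, a restriction chosen after the data were seen.

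Member circRNAs were a small share of the junction reads of every line. They made up 0.591%, 0.541% and 0.668% of the junction reads of the 4T1 libraries, against 0.642%, 0.680% and 0.734% in Eph4-ev. 4T1 replicate 3 lay inside the Eph4-ev range and the other 4T1 libraries below it. With circRNAs that carry an ID, the shares were 0.546%, 0.497% and 0.560% in 4T1, against 0.646%, 0.684% and 0.735% in Eph4-ev, and the lines no longer overlapped. That restriction took away 23.5% of the member reads and 12.1% of all junction reads in 4T1, against 0.268% and 0.667% in Eph4-ev. It therefore lowers the 4T1 share by itself, and this separation is not independent of which circRNAs carry an ID. In the melanocyte lineage the shares were 0.440%, 0.525% and 0.473% in B16F10, against 0.351%, 0.447% and 0.473% in Melan-a, and the lines overlapped. The number of member circRNAs read per library followed depth in the mammary lineage. It was 26, 26 and 42 in 4T1, against 46, 52 and 50 in Eph4-ev, and with every mammary library thinned to 15572 reads it was 26, 25 and 34 in 4T1, against 26, 33 and 32 in Eph4-ev. With circRNAs that carry an ID, and no thinning, it was 19, 19 and 29 in 4T1, against 46, 52 and 47 in Eph4-ev. In the melanocyte lineage it was 32, 36 and 27 in B16F10, against 32, 38 and 34 in Melan-a.

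Importin genes gave most of the member reads in every line. The 12 importin hosts held 303 of the 4T1 member reads (62.3%), 787 in Eph4-ev (70.4%), 142 in B16F10 (55.5%) and 198 in Melan-a (55.5%). The 15 nucleoporin hosts, more than any other group, held 86 reads in 4T1 (17.7%), 76 in Eph4-ev (6.80%), 50 in B16F10 (19.5%) and 68 in Melan-a (19.0%). Per library the nucleoporin part of the member reads was 8.70%, 16.7% and 20.8% in 4T1, against 3.69%, 8.57% and 7.60% in Eph4-ev. All 4T1 libraries lay above all Eph4-ev libraries, by a narrow gap for 4T1 replicate 1. With circRNAs that carry an ID the nucleoporin part was 4.0%, 16.7% and 15.1% in 4T1, against 3.69%, 8.57% and 7.41% in Eph4-ev, and 4T1 replicate 1 lay within the Eph4-ev range. The 7 exportin hosts held 58, 114, 23 and 43 reads in 4T1, Eph4-ev, B16F10 and Melan-a, and the 3 other Ran-binding hosts 39, 141, 41 and 48. Over the 12 libraries this came to 119 reads per importin host, 89.7 per other Ran-binding host, 34.0 per exportin host and 18.7 per nucleoporin host. Ipo7 held 516 of the 2217 member reads, Ipo11 406 and Ranbp9 191, together 50.2%, but Eph4-ev gave 1118 of the 2217 reads. By line these 3 hosts held 34.2% of the member reads in 4T1, 61.6% in Eph4-ev, 45.7% in B16F10 and 39.5% in Melan-a, and Ranbp9 alone held 2.47% in 4T1.

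**Figure D1:**
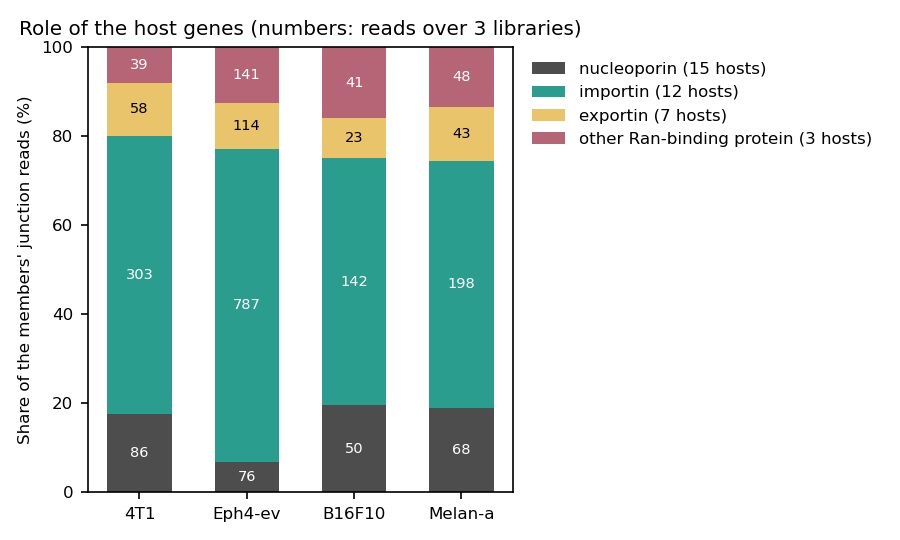
Share of the member junction reads (%, vertical axis) held by hosts of each role in each line, 3 libraries summed, with the read numbers inside the bars. Importin hosts hold between 55.5% and 70.4% of the reads, and the nucleoporin part is 17.7% in 4T1 and 6.80% in Eph4-ev.

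The first comparison was 4T1 against Eph4-ev. The circRNAs of Ipo7, which carries ribosomal proteins and linker histone into the nucleus, were lower in 4T1. Those of the other 12 member hosts that had enough reads to test did not pass. So 1 of 13 member hosts was called lower and 0 higher by edgeR and by DESeq2, with 4 of 13 at an unadjusted p under 0.05 in edgeR. The background of calls was higher: edgeR called 17.5% of the 1515 hosts tested in this lineage, 6.86% higher and 10.6% lower. Of these 1515 hosts, 472 had an unadjusted p under 0.05 in edgeR, a share near that of the members. The median log2 ratio, 4T1 over Eph4-ev, was -0.14 over the 13 member hosts and -0.09 over all hosts tested. Scaled by total reads alone these medians were 0.01 and 0.04.

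Among the importins, Ipo7 had 11, 20 and 46 reads in 4T1, against 107, 89 and 144 in Eph4-ev. As levels this was 706, 1128 and 1031 RPM in 4T1, against 2113, 1571 and 2592 RPM in Eph4-ev, with means of 955 ± 221 and 2092 ± 511 RPM (SD, n = 3 each). Every 4T1 library lay below every Eph4-ev library. The log2 ratio was -1.24 (standard error 0.31, edgeR quasi-likelihood test, Benjamini-Hochberg adjusted p = 0.0120), and without Eph4-ev replicate 3 it was -1.12 with an adjusted p of 0.0580. With circRNAs that carry an ID it was -1.12 (standard error 0.31, adjusted p = 0.0239).

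Ipo11 imports a ubiquitin-conjugating enzyme. Its circRNAs had 450, 959 and 1188 RPM in 4T1, against 1481, 1783 and 1350 RPM in Eph4-ev. The lines did not overlap, but the log2 ratio of -0.88 (standard error 0.35) missed the threshold (edgeR adjusted p = 0.0980). It passed without 4T1 replicate 3 (log2 ratio -1.36, adjusted p = 0.0424) and with no filter on low counts (adjusted p = 0.0334). Ipo7, Ipo11 and Ranbp9 were the 3 of 13 member hosts whose 4T1 libraries all lay below the Eph4-ev libraries, and 0 of 13 lay wholly above. Over all hosts tested 19.3% lay wholly below and 16.8% wholly above.

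Ipo8, a close relative of Ipo7 that also imports Argonaute proteins, scattered widely between the 4T1 libraries. It had 22, 1 and 20 reads in 4T1, against 14, 15 and 16 in Eph4-ev, that is 1413, 56.4 and 448 RPM in 4T1, against 276, 265 and 288 RPM in Eph4-ev. 4T1 replicate 2 lay below all Eph4-ev libraries and the other 4T1 libraries above them. The log2 ratio was 0.99 (standard error 0.72, edgeR adjusted p = 0.391), and without 4T1 replicate 1 it was -0.10. Tnpo3, the import receptor of SR splicing factors, had 9, 4 and 27 reads in 4T1, against 18, 15 and 8 in Eph4-ev (log2 ratio 0.77, standard error 0.63, adjusted p = 0.452). With circRNAs that carry an ID the fold of Tnpo3 was -0.01, since 24 of its 27 reads in 4T1 replicate 3 fell on circRNAs of exons 6 to 7, 6 to 9 and 6 to 11, which have no ID and 0 reads in the other 11 libraries.

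The remaining importins did not pass either. Tnpo1, which imports RNA-binding proteins such as hnRNP A1, had 3, 0 and 22 reads in 4T1, against 13, 17 and 13 in Eph4-ev (log2 ratio -0.15, standard error 0.83, edgeR adjusted p = 0.937). Ipo5, an importer of ribosomal proteins, had 2, 9 and 8 reads in 4T1, against 14, 2 and 0 in Eph4-ev (log2 ratio 1.20, standard error 1.11, adjusted p = 0.522). Kpna1, an importin alpha that recognises classical nuclear localisation signals, had 8, 0 and 2 reads in 4T1, against 4, 10 and 13 in Eph4-ev (log2 ratio -0.14, standard error 1.08, adjusted p = 0.950). Scaled by total reads alone the Kpna1 fold was 0.01. In each of these hosts the lines overlapped.

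Both exportins tested also fell short. Xpo1, the exportin of proteins with leucine-rich export signals, had 321, 226 and 291 RPM in 4T1, against 296, 741 and 360 RPM in Eph4-ev. The highest 4T1 library overlapped the lowest Eph4-ev library, and the log2 ratio was -0.86 (standard error 0.60, edgeR adjusted p = 0.374). Xpo6, which exports actin bound to profilin, had 5, 5 and 8 reads in 4T1, against 2, 0 and 15 in Eph4-ev (log2 ratio 1.13, standard error 1.08, adjusted p = 0.537).

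Of the nucleoporins, Nup133 and Nup210l were tested. Nup210l, a relative of the pore membrane protein Nup210, had 1, 8 and 23 reads in 4T1, against 2, 9 and 0 in Eph4-ev. This was 64.2, 451 and 515 RPM in 4T1, against 39.5, 159 and 0 RPM in Eph4-ev, so that 4T1 replicate 1 lay within the Eph4-ev range. The log2 ratio of 2.26 (standard error 1.04) missed the threshold (edgeR adjusted p = 0.153). Nup133, a scaffold subunit of the Y-shaped complex of the pore, had 0, 0 and 7 reads in 4T1, against 6, 6 and 7 in Eph4-ev (log2 ratio -0.82, standard error 1.18, adjusted p = 0.695). All 7 of its 4T1 reads fell on a circRNA of exons 5 to 10 that was read in 4T1 replicate 3 alone, while its Eph4-ev reads fell on other circRNAs. With 1 read worth 64.2 and 56.4 RPM in the other 4T1 libraries, a level like that of Eph4-ev (117 ± 10.2 RPM, SD, n = 3) was not clearly detectable there at this depth.

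Of the other Ran-binding proteins, Ranbp9, a scaffold of the CTLH ubiquitin ligase complex, had the lowest fold of the 13. It had 0, 7 and 5 reads in 4T1, against 25, 30 and 43 in Eph4-ev, with means of 169 ± 203 and 599 ± 153 RPM (SD, n = 3 each). The lines did not overlap. The log2 ratio was -1.99 (standard error 0.74) with an adjusted p (edgeR) of 0.0776, and the test was passed without 4T1 replicate 2 (log2 ratio -3.12, adjusted p = 0.0129) and with no filter (adjusted p = 0.0250). Ranbp3, a cofactor of Xpo1, had 5, 3 and 19 reads in 4T1, against 15, 6 and 22 in Eph4-ev (log2 ratio 0.13, standard error 0.70, adjusted p = 0.937). Its fold turned to -0.07 with no filter.

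**Figure D2:**
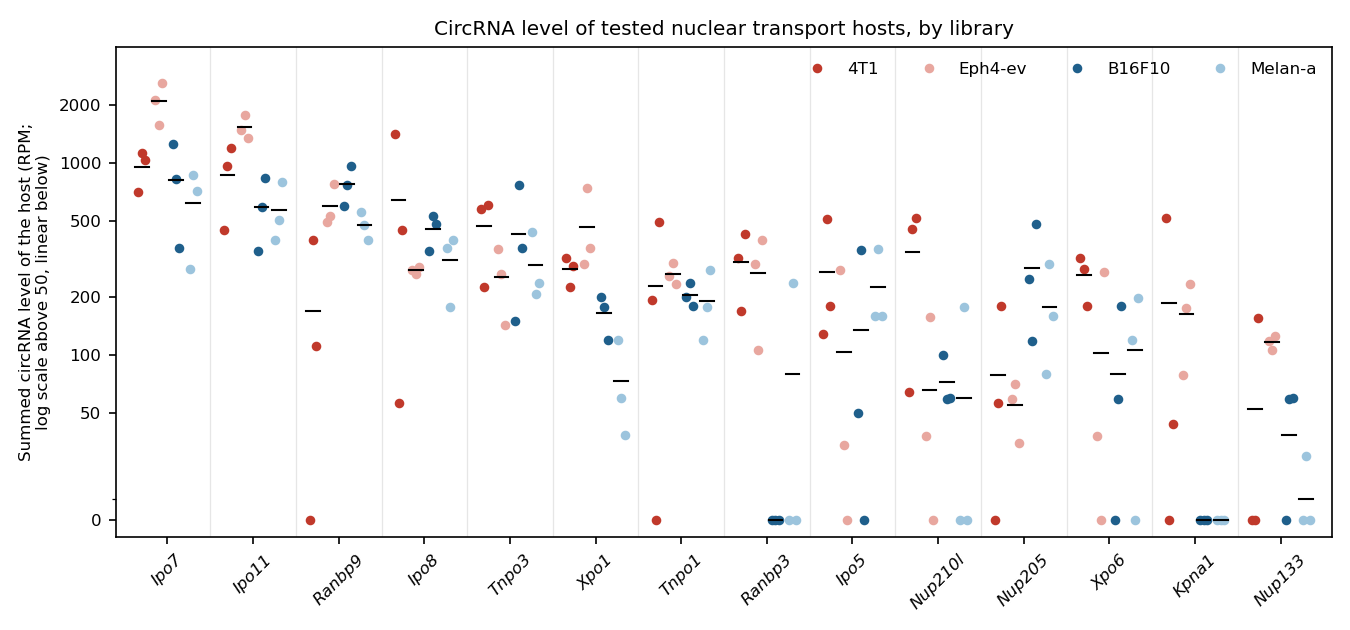
Summed circRNA level (RPM, vertical axis, logarithmic above 50 and linear below) of each of the 14 tested member hosts in each library, in the order 4T1, Eph4-ev, B16F10 and Melan-a within a host; bars mark the means. All 4T1 points of Ipo7, Ipo11 and Ranbp9 lie below the Eph4-ev points, and 4T1 points of Ipo8 run from 56.4 to 1413 RPM.

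The second comparison was B16F10 against Melan-a, where 0 of 6 member hosts were called by edgeR or DESeq2 and 0 had an unadjusted p under 0.05. edgeR called 7.24% of the 898 hosts tested in this lineage, 2.9% higher and 4.34% lower. An unadjusted p under 0.05 was reached by 193 of the 898 in edgeR. The median log2 ratio, B16F10 over Melan-a, was 0.44 over the 6 member hosts and 0.01 over all hosts. Scaled by total reads alone these medians were 0.55 and 0.11. With libraries this shallow, most member hosts could not be tested.

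Ipo7 had 1249, 826 and 359 RPM in B16F10, against 279, 864 and 716 RPM in Melan-a, and the lines overlapped in part (log2 ratio 0.30, standard error 0.53, edgeR adjusted p = 0.801). Ipo11 had 7, 10 and 14 reads in B16F10, against 10, 17 and 20 in Melan-a (log2 ratio -0.04, standard error 0.48, adjusted p = 0.973), and its fold was 0.07 when scaled by total reads alone. Ipo8 had 7, 9 and 8 reads in B16F10, against 9, 6 and 10 in Melan-a (log2 ratio 0.46, standard error 0.56, adjusted p = 0.718). Tnpo3 gave a log2 ratio of 0.43 (standard error 0.66, adjusted p = 0.777), with 3, 13 and 6 reads in B16F10, against 11, 7 and 6 in Melan-a.

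Nup205, a large subunit of the inner ring of the pore, reached the test in this lineage alone. Its counts were 5, 2 and 8 in B16F10, against 2, 10 and 4 in Melan-a (log2 ratio 0.50, standard error 0.80, edgeR adjusted p = 0.783). Ranbp9 had 12, 13 and 16 reads in B16F10, against 14, 16 and 10 in Melan-a, or 600, 767 and 958 RPM in B16F10, against 558, 477 and 398 RPM in Melan-a. All B16F10 libraries lay above all Melan-a libraries, the nearest pair by about the worth of 1 read, and the log2 ratio of 0.59 (standard error 0.43) did not pass (adjusted p = 0.465). Ranbp9 was the 1 of 6 member hosts so separated upward and 0 of 6 were separated downward, where the background was 16.3% upward and 12.9% downward.

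The reads of the 8 members tested in the mammary lineage alone were as follows. Kpna1 had 0 reads in all 6 melanocyte libraries, and 0 of 137437 junction reads allows a level of up to 21.8 RPM (3 reads over the 6 libraries, counting error only). Ranbp3 had 0 reads in each B16F10 library and 0, 8 and 0 in Melan-a. Xpo1 had 4, 3 and 2 reads in B16F10, against 3, 2 and 1 in Melan-a, and Tnpo1 had 4, 4 and 3 in B16F10, against 3, 6 and 7 in Melan-a. Ipo5 had 1, 6 and 0 reads in B16F10, against 4, 12 and 4 in Melan-a, with means of 135 ± 192 and 225 ± 115 RPM (SD, n = 3 each). Xpo6 had 0, 1 and 3 reads in B16F10, against 3, 0 and 5 in Melan-a. Nup210l had 2, 1 and 1 reads in B16F10, against 0, 6 and 0 in Melan-a, and Nup133 had 0, 1 and 1 in B16F10, against 0, 1 and 0 in Melan-a.

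**Figure D3:**
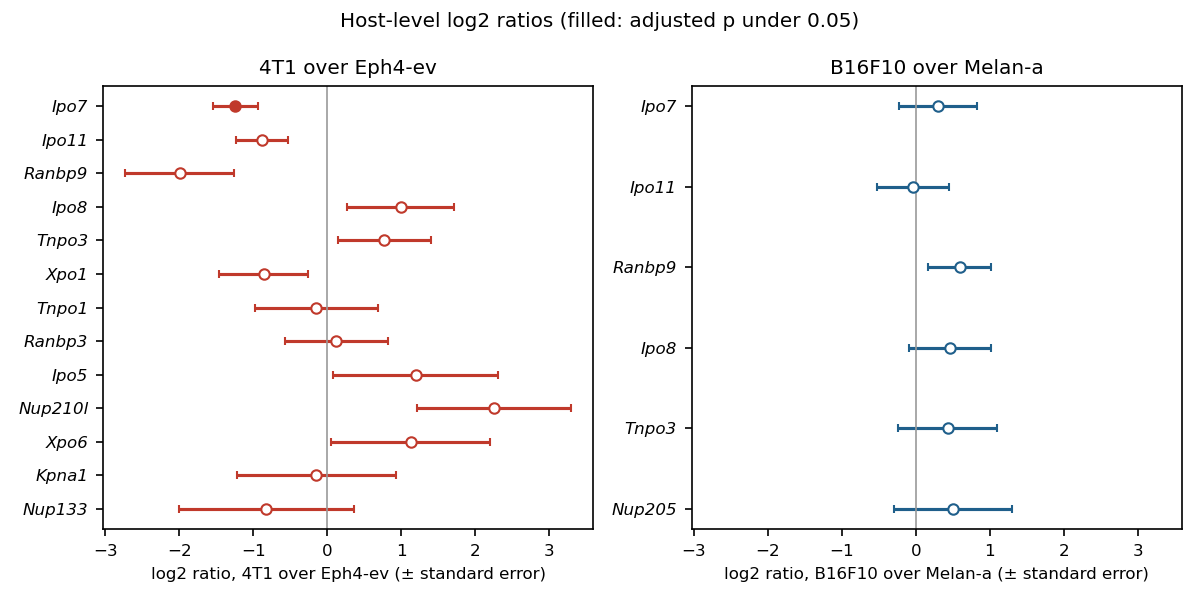
Log2 ratios with standard errors for the member hosts tested, 4T1 over Eph4-ev on the left (13 hosts) and B16F10 over Melan-a on the right (6 hosts); a filled point has an edgeR adjusted p under 0.05. The point of Ipo7 in the left panel is the filled one, at -1.24, and the points of the right panel lie between -0.04 and 0.59.

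Whether a member differed between the lineages was tested on 12 libraries as (4T1 minus Eph4-ev) minus (B16F10 minus Melan-a), over hosts that both tables list. Of 11 member hosts 0 were called by edgeR, with 2 at an unadjusted p under 0.05, and 1 was called lower by DESeq2. The background in edgeR was 10% of 1325 hosts, 4.38% higher and 5.66% lower, and 336 of the 1325 had an unadjusted p under 0.05. DESeq2 called 61 of the 1325 higher and 81 lower. Ranbp9 had a difference of -2.60 (standard error 0.86, edgeR adjusted p = 0.0528), and DESeq2 gave -2.58 (adjusted p = 0.0362). The edgeR value was -3.67 without 4T1 replicate 2 (adjusted p = 0.00821) and -2.76 without Melan-a replicate 2 (adjusted p = 0.0411). With all 12 libraries thinned to 15572 junction reads it was -1.94 (adjusted p = 0.174). Ipo7 had a difference of -1.56 (standard error 0.61, adjusted p = 0.101), so the call in the mammary lineage and its lack in the melanocyte lineage are not shown to differ. It passed without B16F10 replicate 3 (-1.99, adjusted p = 0.0387) and without Melan-a replicate 2 (-2.04, adjusted p = 0.0259). For the other 9 hosts adjusted p lay between 0.227 and 1.0.

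Single circRNAs showed which circle carried a host's value. In Ipo7, the circle of exons 2 to 4 (junction given above) held 68.8% of the host's reads in 4T1, 90.0% in Eph4-ev, 91.1% in B16F10 and 98.1% in Melan-a. It had 11, 16 and 26 reads in 4T1, against 101, 83 and 122 in Eph4-ev, or 730 ± 161 RPM and 1885 ± 378 RPM (SD, n = 3 each). It was lower in 4T1, with a log2 ratio of -1.63 (standard error 0.30, edgeR adjusted p = 0.00658), and it kept the call without any 1 of the 6 libraries (adjusted p between 0.00712 and 0.0313). It was the 1 of 14 tested member circRNAs called in this lineage, where edgeR called 17.4% of 1869 circRNAs, 5.99% higher and 11.4% lower. In B16F10 it had 22, 13 and 6 reads, against 7, 29 and 17 in Melan-a (log2 ratio 0.22, standard error 0.51, edgeR adjusted p = 0.858). There 0 of 4 member circRNAs were called by edgeR or DESeq2, and 0 had an unadjusted p under 0.05. The edgeR background was 11.4% of 874 circRNAs, 5.49% higher and 5.95% lower. Of the 874, 208 had an unadjusted p under 0.05 in edgeR. Another circle of Ipo7, of exons 14 to 15 (chr7:110046678-110047147), had 0, 2 and 14 reads in 4T1, against 1, 2 and 3 in Eph4-ev, and was not tested because it missed the filter on low counts.

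Ipo11 circles came from several parts of the gene, and those tested lay near its ends. That of exons 4 to 5 had 4, 12 and 20 reads in 4T1, against 35, 41 and 49 in Eph4-ev (log2 ratio -0.94, standard error 0.44, edgeR adjusted p = 0.173). Near the end of the gene, 3 circles shared the end of exon 29 and 3 the start of exon 25, out of 30 exons. The circle of exons 25 to 29 (chr13:106812208-106848336) had 0, 2 and 1 reads in 4T1, against 17, 12 and 10 in Eph4-ev (log2 ratio -2.68, standard error 1.03, adjusted p = 0.104). That of exons 26 to 29 (chr13:106812208-106847459), which differs by 1 exon at its start, had 0, 3 and 21 reads in 4T1, against 6, 13 and 9 in Eph4-ev (log2 ratio 0.32, standard error 0.92, adjusted p = 0.857). Nearly all its 4T1 reads came from replicate 3.

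Ranbp9 had 12 circles with reads, as many as Ipo11 and the most of any member, against a median of 3 per host. That of exons 6 to 12 (chr13:43412411-43425214) had 0, 0 and 0 reads in 4T1, against 5, 5 and 22 in Eph4-ev, which is at least 5.10-fold lower (pooled reads against a floor of 3 reads over the 3 libraries, not scaled by TMM). Of the 32 Eph4-ev reads 22 came from replicate 3, and without that library the bound was 2.42-fold. In the melanocyte lineage it had 4, 8 and 5 reads in B16F10, against 4, 4 and 3 in Melan-a. The circle of exons 2 to 4 (chr13:43434814-43461823) held 8 of the 12 Ranbp9 reads in 4T1, with 0, 4 and 4 reads, against 3, 10 and 6 in Eph4-ev (log2 ratio -0.35, standard error 1.06, edgeR adjusted p = 0.866).

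**Figure D4:**
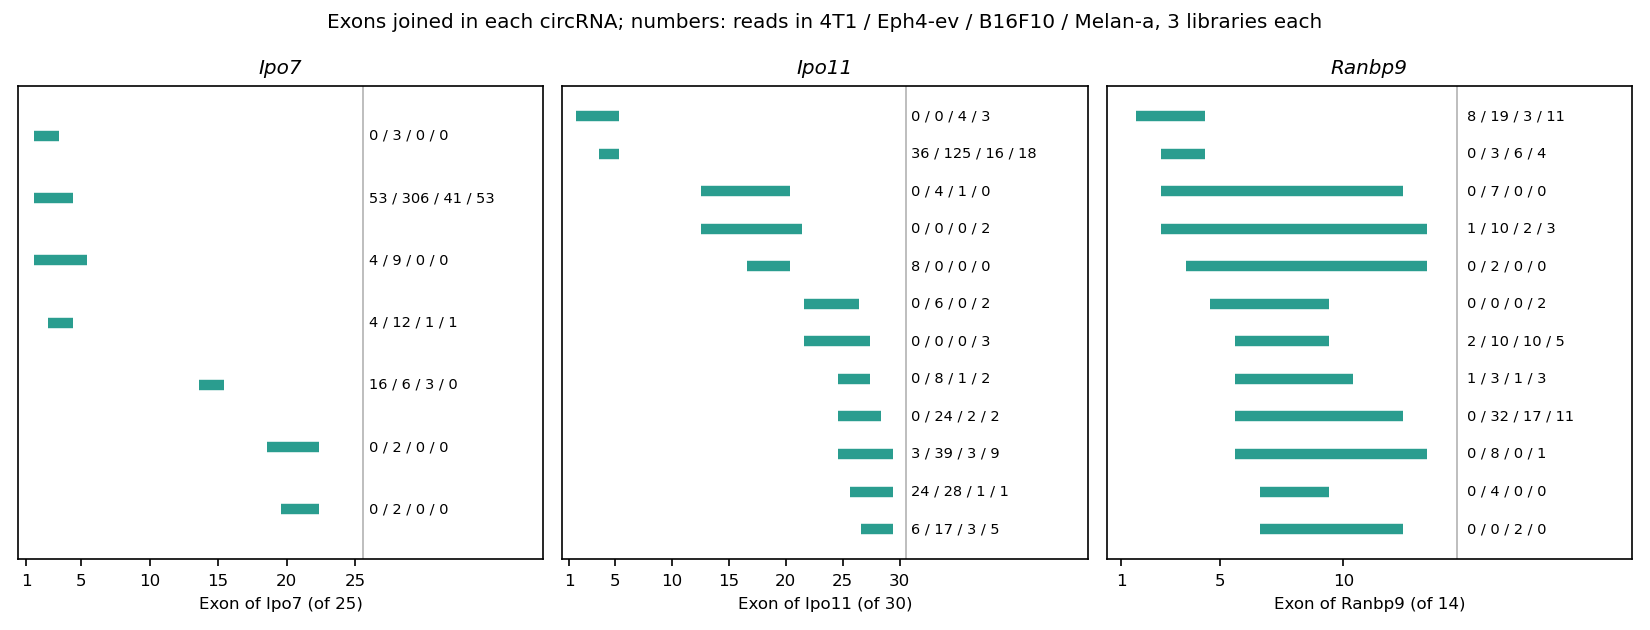
Exons joined in each circRNA with reads of Ipo7, Ipo11 and Ranbp9 (horizontal axis, exon number in the transcript; each bar is 1 circRNA), with its reads in 4T1, Eph4-ev, B16F10 and Melan-a beside it. The Ipo7 circle of exons 2 to 4 stands out with 53, 306, 41 and 53 reads, and 3 Ipo11 circles end together at exon 29.

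For Ipo8 and Xpo1 the summed level overlapped between 4T1 and Eph4-ev, but the share held by the leading circle did not. The Ipo8 circle of exons 2 to 3 held 95.5%, 100% and 100% of the host's reads in 4T1 (21, 1 and 20 reads), against 42.9%, 40.0% and 37.5% in Eph4-ev (6 reads in each library). Of the other Ipo8 circles, that of exons 2 to 9 (chr6:148806385-148824485) had 1, 0 and 0 reads in 4T1, against 0, 5 and 5 in Eph4-ev. The Xpo1 circle of exons 2 to 4 (chr11:23261835-23271205) held 100%, 100% and 92.3% of the host's reads in 4T1 (5, 4 and 12 reads), against 46.7%, 54.8% and 30.0% in Eph4-ev (7, 23 and 6 reads). The Xpo1 circles of exons 10 to 11 and 11 to 12 had 0 reads in 4T1, against 15 and 14 reads in Eph4-ev. The share of the leading circle was compared by exact two-sided permutation tests in Ipo7, Ipo11, Ipo8, Ranbp9, Xpo1, Tnpo3 and Nup210l. Of these, 11 pairs of a host and a lineage had reads in all 6 libraries. Other members with such reads, among them Tnpo1 and Nup205 in the melanocyte lineage, were not compared. The smallest p that 3 against 3 allows is 0.1, reached by Ipo8 and Xpo1 in the mammary lineage and by Ranbp9 in the melanocyte lineage, and adjusted over the 11 it was 0.367. This test therefore cannot pass a threshold with 3 libraries per line, and no model of the shares was fitted. The hosts were picked after their values were seen, and how often such separation of shares occurs over all hosts was not counted.

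Only a few member circles were read throughout. Those of Ipo11 exons 4 to 5, Ipo8 exons 2 to 3 and Ipo7 exons 2 to 4 were read in all 12 libraries, 2.14% of the 140 member circles with reads, against 3.69% (474) of all circRNAs. Among mammary libraries 40 of 102 member circles (39.2%) were read in 1 library alone, against 32.4% of all circRNAs, and among melanocyte libraries 46 of 93 (49.5%), against 39.7%. 4T1 replicate 3 stood apart: 8 of its 42 member circles (19.0%) had at least 5 reads there and 0 in the other 5 mammary libraries, against 5.56% of all circRNAs read in that library. They were Tnpo3 exons 6 to 7, 6 to 9 and 6 to 11, Nup133 exons 5 to 10, Nup210l exons 9 to 36, Nup54 exons 2 to 11, Ipo11 exons 17 to 20 and Xpo5 exons 3 to 5. None of the 8 had an ID in the circBase column (0 of 8), and of all 204 such circRNAs of that library 3.43% had one. In each Eph4-ev library, all circRNAs that met the same rule carried an ID. Whether the listing had a part in the results given for these hosts was not tested beyond the restriction to circRNAs with an ID.

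The structure of the member circles in GENCODE M21 is given as a description. Both ends of all 140 lay at annotated exon boundaries, and 0 consisted of 1 exon, against 4.32% of all circRNAs with matched exons. They joined a median of 4 exons (all circRNAs 3), and the median spliced length was 479.5 bases (all circRNAs 481). Their span on the genome had a median of 6285 bases, against 8198.5 for all. In 20.7% (29) the first exon was exon 2, against 32.3% of all, and 7.14% (10) held the annotated start codon, against 15.1%. Coding sequence filled 92.9% (130) of them entirely, against 83.3%, and in 40.0% (56) the length was a multiple of 3 bases, against 37.7%. The start at exon 2 was unevenly spread over the roles, with 18 of 61 importin circles, 8 of 25 exportin circles, 2 of 41 nucleoporin circles and 1 of 13 others. Circles of the same host share exons, so these counts are not independent.

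The 23 member hosts that were tested in neither lineage held 276 of the 2217 member reads. Of these, 11 had at least 10 reads over the 12 libraries. The nucleoporins among them were the inner ring subunit Nup93 with 36 reads, Nup107 of the Y-shaped complex with 24, Ranbp2 with 23 and Nup98, which lines the channel, with 20. Ranbp2, the nucleoporin of the cytoplasmic filaments, had 3, 4 and 4 reads in 4T1, against 0, 0 and 2 in Eph4-ev, a pooled ratio of 11.5 (95% exact interval 2.51 to 107, counting error only). Means were also higher in 4T1 than in Eph4-ev for Xpo5 (138 against 35.4 RPM), Ipo9 (86.3 against 54.8), Nup107 (74.7 against 42.0) and Tnpo2 (52.5 against 31.7). Each of these had 0 reads in at least 1 4T1 library. Pooled ratios were below 1, with intervals that held 1, for Nup93 (0.39, interval 0.0732 to 1.37), Nup98 (0.42, 0.00884 to 3.73) and Xpo7 (0.78, 0.134 to 3.26). Kpna6 had 0 reads in 4T1, against 2, 7 and 0 in Eph4-ev. Its bound of at least 1.44-fold lower rests mainly on Eph4-ev replicate 2. Xpo4 had 0 reads in 4T1, against 0, 6 and 0 in Eph4-ev. In the melanocyte lineage Ranbp2 had 3, 0 and 2 reads in B16F10, against 2, 2 and 1 in Melan-a. The exportins were Xpo5, which carries microRNA precursors, with 30 reads, Xpo7 with 17, the exportin relative Ranbp17 with 11 and Xpo4, the exporter of a translation factor, with 10. Importins were Ipo9, a carrier of core histones, with 20, the Tnpo1 relative Tnpo2 with 11 and the importin alpha Kpna6 with 10. The other 12 had 0 to 9 reads (Ranbp10 had 0), and Nup54 had 7 reads, all in 4T1 replicate 3, against 0 in Eph4-ev. Xpot had 2, 2 and 0 reads in 4T1, against 0 in Eph4-ev, which is at least 2.79-fold higher by pooled reads.

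Of 30 other gene symbols of the same machinery that the name pattern does not match, few gave circRNA reads, 9 in 4T1, 10 in Eph4-ev, 10 in B16F10 and 10 in Melan-a. The GTPase Ran and its exchange factor gene Rcc1 were among those with 0 reads, and the list holds Ndc1 also under its older symbol Tmem48. In 4T1 against Eph4-ev 6 were tested and 0 called by edgeR, with 2 at an unadjusted p under 0.05 and a median log2 ratio of 0.77. Over all 1515 hosts tested, 472 had an unadjusted p under 0.05 in edgeR, and the median log2 ratio was -0.09. Nupl1, a nucleoporin of the central channel, had a log2 ratio of 3.67 (standard error 1.32, edgeR adjusted p = 0.0682), and Ahctf1, which starts pore assembly on chromatin, of 1.88 (standard error 0.84, adjusted p = 0.140). The other 4 had log2 ratios of 0.85 (Tpr), 0.69 (Senp1), 0.26 (Rangap1) and -0.69 (Cse1l, the exporter of importin alpha). In B16F10 against Melan-a 3 were tested and 0 called by edgeR (0 at an unadjusted p under 0.05), with log2 ratios of -1.32 for Tpr of the nuclear basket, -0.94 for Rangap1, the activator of GTP hydrolysis by Ran, and 0.83 for Senp1, a SUMO protease.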

How the data were processed

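CircRNA libraries of 4 mouse lines were used as deposited, with 1 table per lineage. Per the labels' protocols, CIRI2 (BWA-MEM) and CIRCexplorer2 (TopHat) detected the circRNAs after RNase R treatment. Coordinates are on mm10, the build named in the submitters' processing notes. How the callers' reads were merged and which circRNAs were listed is not given in the sources used here. The deposited count columns hold junction reads, and the deposited RPM columns are the authors' counts over the column total. The labels mention no molecular identifiers, so intervals cover counting error only.

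Counts were summed per host and tested on whole tables with edgeR 4.0.16 in R 4.3.3 (quasi-likelihood F test, TMM, filterByExpr with a minimum count of 5 and total of 10, Benjamini-Hochberg adjustment, threshold 0.05). The code was tested on simulated data. Alternatives were RLE factors, total reads, no filter, a minimum of 10, DESeq2 1.42.0, thinning, a replicate block, leaving out each library and, chosen after seeing the data, circRNAs with an ID only. Exons and sequences come from GENCODE M21.

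Named genes are all tested hosts, called circRNAs, leading circles and untested hosts with at least 10 reads. Members and lists were chosen with earlier results of these data known. Other circles, Nup54 and Xpot were named after their values were seen.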

Additional observations from a re-analysis of the deposited data

Results flagged for a closer look

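For Ranbp9, all 4T1 libraries (0, 395 and 112 RPM) lay below all Eph4-ev libraries (494, 530 and 774 RPM), while all B16F10 libraries (600, 767 and 958 RPM) lay above all Melan-a libraries (558, 477 and 398 RPM). Such separation was common, with 19.3% of all mammary hosts tested wholly below and 16.3% of all melanocyte hosts tested wholly above. Neither lineage passed its own edgeR test for Ranbp9 (log2 ratio -1.99, adjusted p = 0.0776 in 4T1 over Eph4-ev, and 0.59, adjusted p = 0.465 in B16F10 over Melan-a). The difference between the lineages was -2.60 on the log2 scale (standard error 0.86). The edgeR test of that difference missed the threshold (adjusted p = 0.0528), and over the alternatives that leave out no library its adjusted p ran from 0.0362 to 0.174. The 4T1 libraries held 12 Ranbp9 reads in all.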

How the results depend on the processing

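The Ipo7 circle of exons 2 to 4 stayed lower in 4T1 under every alternative run (edgeR or DESeq2 adjusted p between 8.32e-05 and 0.0313). Member hosts called lower in 4T1 were 1 of 13 in the test as reported, against 161 of all 1515 hosts. With no filter they were 3 of 30 (Ipo7, Ipo11 and Ranbp9), against 207 of all 3617. When 1 library was left out they numbered 0 to 2, and 42 to 179 of all hosts tested were called lower. Member hosts called lower in the difference between lineages numbered 0 of 11 as reported, against 75 of all 1325 hosts. They numbered 1 each (Ranbp9) with no filter (of 30), with a minimum count of 10 (of 5) and with DESeq2 (of 11). The background there was 98 of 3499, 68 of 799 and 81 of 1325 hosts. Without 1 library they numbered 0 to 2, and 56 to 109 of all hosts tested were called lower. Member circRNAs called higher in 4T1 numbered 0 to 1 without 1 library. The 1 was Ipo8 exons 2 to 3 without 4T1 replicate 2 (log2 ratio 2.63, edgeR adjusted p = 0.0251), where 85 of all 2435 circRNAs were called higher. With all libraries it did not pass (log2 ratio 2.17, standard error 0.86, edgeR adjusted p = 0.113). The library left out held 1 read of this circle (56.4 RPM), below every Eph4-ev library.

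Some folds changed sign without passing a test, and not all of them were near 0 in the test as reported. The reported log2 ratios were 0.99 for Ipo8 and 0.77 for Tnpo3 in the mammary lineage and 0.50 for Nup205 in the melanocyte lineage. With all libraries kept, the folds that changed sign in 4T1 against Eph4-ev were Kpna1 (0.013 with total reads alone), Ranbp3 (-0.072 with no filter) and Tnpo3 (-0.0057 with circRNAs that carry an ID). In B16F10 against Melan-a Ipo11 was 0.0083 with RLE factors, 0.070 with total reads, 0.018 with no filter, 0.0016 with a minimum count of 10, 0.0097 with DESeq2, 0.043 thinned and 0.049 with circRNAs that carry an ID. Without 1 library, Ipo8 ran from -0.10 to 1.40, Kpna1 from -2.51 to 0.35, Ranbp3 from -0.38 to 0.45 and Tnpo1 from -1.74 to 0.25 in the mammary lineage, and Ipo11 from -0.32 to 0.29, Ipo7 from -0.11 to 0.68, Nup205 from -0.020 to 0.88 and Tnpo3 from -0.28 to 0.90 in the melanocyte lineage. The cause was not tested.

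Member circRNAs per library averaged 31.3 in 4T1, 49.3 in Eph4-ev, 31.7 in B16F10 and 34.7 in Melan-a. With at least 2 reads these were 25.3, 43.0, 19.7 and 27.0 in the same order of lines. Thinned to equal depth within each lineage they were 28.3, 30.3, 31.0 and 30.3. That depth was 15572 reads for mammary and 16697 for melanocyte libraries, so these means compare lines of 1 lineage. With circRNAs that carry an ID the means were 22.3, 48.3, 25.3 and 32.3, and the share of junction reads from members was 0.534% in 4T1, against 0.600% with all circRNAs.

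Deviations of libraries with the same replicate number correlated at -0.04 to 0.02 in the mammary lineage and at -0.08 to -0.002 in the melanocyte lineage, so the numbers are not shown to pair the libraries. With the replicate number as a block, 1 host and 1 circRNA were called lower in 4T1 and 0 in the other comparisons, and the block changed no call. Depth limits these results: 23 of 37 hosts could not be tested, and an undetected circRNA is not shown to be absent.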

Other observations

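CircRNAs with and without an ID differed in which lines had reads for them well beyond the nuclear transport genes. In the mammary table, 65 of the 7707 circRNAs with an ID in the circBase column had reads in 4T1 alone and 3610 in Eph4-ev alone. Of the 1785 without an ID, 1328 had reads in 4T1 alone and 0 in Eph4-ev alone. In the melanocyte table, 1000 of the 10075 circRNAs with an ID had reads in B16F10 alone and 2173 in Melan-a alone, while of the 2835 without an ID 1324 had reads in B16F10 alone and 115 in Melan-a alone. Among circRNAs with at least 5 reads in 4T1 replicate 3 and 0 in the other mammary libraries, 3.43% of 204 had an ID. For the Eph4-ev libraries, 93 of 93, 148 of 148 and 135 of 135 such circRNAs had one. Among nuclear transport genes, Nup54 and the Tnpo3 circles of exons 6 to 7, 6 to 9 and 6 to 11 rest on such circRNAs of 4T1 replicate 3. How the tables were filtered is not given in the sources used here.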
